A study of Homo sapiens with 2 samples.

Results

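The RAB genes encode the largest family of small GTPases. All protein-coding RefSeq genes whose symbol is RAB followed by digits and optional letters were taken, which gave 64 genes of the 19974 protein-coding genes on chromosomes 1 to 22 and X. RAB3IP and RAB5IF fit the letters of this rule but encode no RAB protein, and were left out. A peak was assigned to a gene when its interval came within 1 kb of either end of the gene (a gene-end peak) or lay inside it, and its level is the fold enrichment over the control at its summit. The ends are the outermost ends over all RefSeq transcripts.

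The peaks came from 1 anti-Flag immunoprecipitate, with 1 Input library as the control. Both were made from A549, a human NSCLC line (lung adenocarcinoma). For the immunoprecipitate, ETV4 had first been knocked down with an shRNA (A549-shETV4) and Flag-ETV4, an ETS transcription factor with a tag, was then put back on a plasmid by transfection, so the peaks are those of the tagged protein in cells that carry the knockdown. The labels do not say whether the Input came from the same transfected cells, and they name a Sigma F1804 antibody where the paper's methods name another. A peak list holds no cell type marker, so the cell type could not be checked here. There was no replicate, so no difference between genes could be tested against a spread between samples, and the intervals below cover the counting of fragments at a summit only.

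RAB proteins are switches that mark the membranes of the cell. In the GTP-bound form each sits on its own set of vesicles or organelles and recruits motors, tethers and other effectors, and in the GDP-bound form it is drawn off the membrane. Exchange factors switch them on, GTPase activating proteins switch them off, and prenylation anchors them in the membrane. In epithelial cells such as those of the lung they direct secretion, the return of receptors and integrins to the surface, and the delivery of cargo to lysosomes.

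Most RAB genes had an ETV4 peak. At least 1 peak lay within 1 kb of an end or inside 55 of the 64 genes (85.9%), against 74.5% of all protein-coding genes. RAB genes had a median length of 30.0 kb, against 24.2 kb, and these shares, which count inside peaks, were not matched for length. A gene-end peak was found at 50 RAB genes (78.1%), against a background of 62.3%. With a fold over 5 required, 47 RAB genes (73.4%) had a gene-end peak, against 57.6% of all protein-coding genes, with a fold over 10, 39 (60.9%), against 45.4%, and with a fold over 40, 8 (12.5%), against 8.75%. Where a gene-end peak was present, its level was close to that of protein-coding genes in general. The strongest gene-end peak of a RAB gene had a median fold of 18.9 (quartiles 11.2 and 32.7, 50 genes), and that of all protein-coding genes a median of 17.6 (quartiles 9.33 and 30.6, 12444 genes). The summit pileup, which is the number of fragments stacked at the summit, had a median of 57.0 in RAB genes and 54.0 in all, and the control level a median of 2.03 in both. In all, 115 peaks belonged to RAB genes, 60 of them at an end. A single peak was found at 30 genes, and 2 or more at 25. Peaks per gene were not counted over all protein-coding genes and were not matched for gene length, so these numbers only describe the RAB genes.

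**Figure D1:**
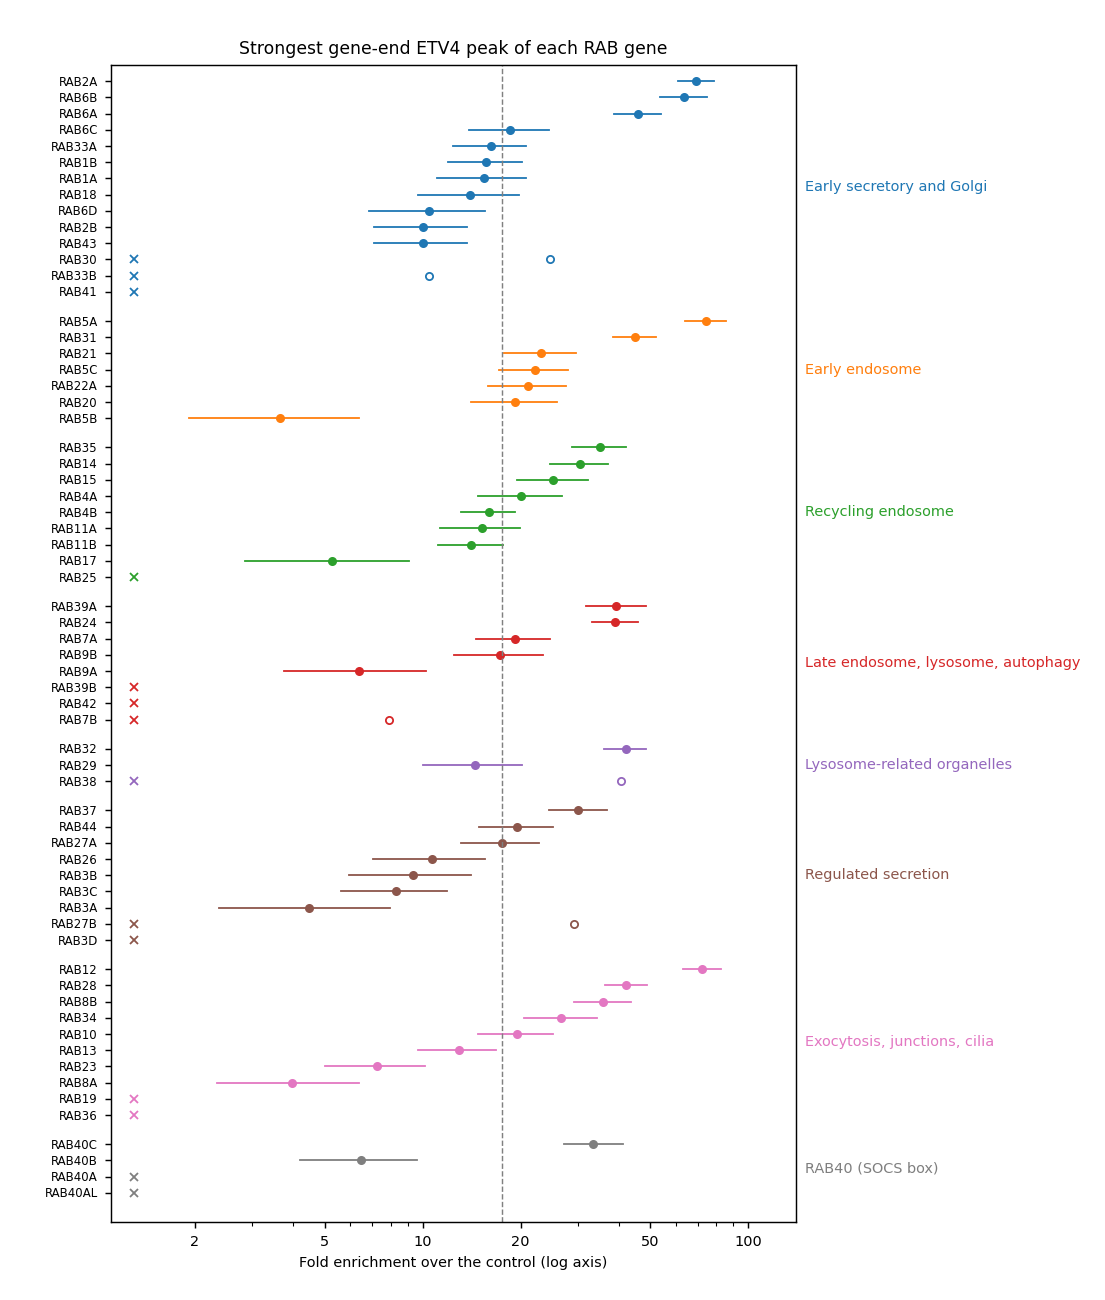
Fold enrichment (log axis) of the strongest gene-end peak of each of the 64 RAB genes, by trafficking step. Points are the deposited fold and bars its 95% counting interval from the summit pileup with the control level held fixed. Crosses mark the 14 genes with no gene-end peak, open circles the strongest peak inside 5 of those, and the dashed line the median of all protein-coding genes, 17.6. RAB5A, RAB12, RAB2A and RAB6B lie furthest to the right, and RAB5B, RAB8A and RAB3A furthest to the left among genes with a gene-end peak.

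For 51 of the RAB genes, RefSeq promoter windows (GRCh38.p14, 250 bases before to 50 after a start, 72 windows in all) allowed the summits to be read against sequence. ETS factors recognise a GGAA core, which ETV4 and its relatives prefer as CCGGAAGT. Each window was searched on both strands for GGAAGT, for CCGGAAGT, which contains it, for CAGGAAGT, which also contains it, and for TGANTCA, the site of AP-1. The strongest nearby peak had its summit inside a window in 9 of the 51 RAB genes, a lower share than the 3707 of 15812 protein-coding genes. Of these 9 RAB windows, 7 (77.8%) held GGAAGT, against 40.2% of the 3967 such windows of all protein-coding genes. The RAB share rests on few windows, and the difference was not tested. The 7 genes were RAB5A, RAB7A, RAB24, RAB27A, RAB40C, RAB4B and RAB11A, and those without were RAB31 and RAB13. In the 7 windows the summit lay a median of 15.5 bp from the centre of the nearest GGAAGT, and within 20 bp in 5 of them. Over all protein-coding genes, this distance had a median of 35.5 bp, and 32.4% of 1593 windows were within 20 bp. Where a peak overlapped the window but its summit, or that of a stronger peak, lay outside, 8 of 38 RAB windows (21.1%) held GGAAGT, against 21.3% of all such windows.

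Windows of 5 of these 7 genes are shown as examples that span the range of distances between the summit and the centre of the nearest GGAAGT, from 0.5 bp at RAB7A to 52.5 bp at RAB5A. RAB4B, at 11.5 bp, and RAB40C, at 15.5 bp, are not shown. For contrast they are followed by a window that has a strong peak and no GGAAGT (RAB6B) and a window with CCGGAAGT and no peak (RAB17). Capitals mark GGAAGT or its reverse complement, and the sequences run 5′ to 3′ on the strand of the gene, so that the start is the base that follows the first 250.
RAB7A, chr3:128725933-128726232, plus strand: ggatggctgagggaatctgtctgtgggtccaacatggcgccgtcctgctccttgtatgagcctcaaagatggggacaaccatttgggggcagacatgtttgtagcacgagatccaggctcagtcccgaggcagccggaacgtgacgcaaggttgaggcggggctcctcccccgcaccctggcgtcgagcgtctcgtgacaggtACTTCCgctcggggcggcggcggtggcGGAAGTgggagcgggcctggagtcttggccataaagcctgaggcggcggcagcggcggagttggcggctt
RAB24, chr5:177303670-177303969, minus strand: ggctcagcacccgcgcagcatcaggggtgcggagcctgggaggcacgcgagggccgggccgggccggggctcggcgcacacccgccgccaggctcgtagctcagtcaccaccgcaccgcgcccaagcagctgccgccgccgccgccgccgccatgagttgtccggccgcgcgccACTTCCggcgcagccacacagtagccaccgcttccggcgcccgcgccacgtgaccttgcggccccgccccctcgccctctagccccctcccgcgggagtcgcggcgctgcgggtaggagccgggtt
RAB11A, chr15:65869241-65869540, plus strand: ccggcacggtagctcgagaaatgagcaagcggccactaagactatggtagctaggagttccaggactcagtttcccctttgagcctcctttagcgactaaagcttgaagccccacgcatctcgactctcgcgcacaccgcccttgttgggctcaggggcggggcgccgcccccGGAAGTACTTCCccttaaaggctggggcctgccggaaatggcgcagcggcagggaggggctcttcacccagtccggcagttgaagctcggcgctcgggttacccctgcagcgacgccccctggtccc
RAB27A, chr15:55319074-55319373, minus strand: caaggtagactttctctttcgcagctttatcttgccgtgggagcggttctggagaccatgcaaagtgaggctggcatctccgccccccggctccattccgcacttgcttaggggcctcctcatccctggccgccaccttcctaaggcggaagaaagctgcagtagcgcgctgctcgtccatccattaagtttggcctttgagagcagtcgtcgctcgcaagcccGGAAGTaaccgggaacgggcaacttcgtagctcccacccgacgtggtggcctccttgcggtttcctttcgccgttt
RAB5A, chr3:19946847-19947146, plus strand: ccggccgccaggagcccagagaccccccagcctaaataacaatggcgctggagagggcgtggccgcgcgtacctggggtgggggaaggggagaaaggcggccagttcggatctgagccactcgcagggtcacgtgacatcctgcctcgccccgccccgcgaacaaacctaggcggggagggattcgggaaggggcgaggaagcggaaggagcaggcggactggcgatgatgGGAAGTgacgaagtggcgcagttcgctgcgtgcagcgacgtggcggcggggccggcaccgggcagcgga
RAB6B, chr3:133895798-133896097, minus strand: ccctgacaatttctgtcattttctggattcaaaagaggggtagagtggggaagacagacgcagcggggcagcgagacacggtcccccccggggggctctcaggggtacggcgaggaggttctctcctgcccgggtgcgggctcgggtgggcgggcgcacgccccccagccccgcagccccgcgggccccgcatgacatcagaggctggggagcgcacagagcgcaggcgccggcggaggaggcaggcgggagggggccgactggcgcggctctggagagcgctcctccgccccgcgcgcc
RAB17, chr2:237590685-237590984, minus strand: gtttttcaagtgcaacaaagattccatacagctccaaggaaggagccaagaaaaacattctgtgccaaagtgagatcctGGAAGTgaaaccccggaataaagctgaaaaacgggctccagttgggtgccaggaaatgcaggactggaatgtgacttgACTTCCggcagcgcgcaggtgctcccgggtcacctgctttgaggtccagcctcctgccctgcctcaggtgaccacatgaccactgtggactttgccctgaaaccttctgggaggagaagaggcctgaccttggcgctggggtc

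With the start base counted as 0, the RAB7A summit at -17 fell within the GGAAGT from -20 to -15. RAB7A, which drives late endosomes to fuse with lysosomes, also had a copy on the other strand from -47 to -42. At RAB24, a RAB linked to autophagy, the summit at -75 fell within CCGGAAGT on the other strand, from -76 to -69. At RAB11A, the RAB of the recycling endosome, CCGGAAGT ran from -79 to -72 and abutted a GGAAGT on the other strand from -71 to -66, and the summit was at -91. At RAB27A, which docks secretory vesicles and exosome-bearing endosomes at the plasma membrane, CCGGAAGT ran from -28 to -21 and the summit was at -55. At RAB5A, the GGAAGT from -19 to -14 was 52.5 bp from the summit at 36. The RAB6B peak had its summit at 243, beyond the window. In contrast, RAB17 had CCGGAAGT from -93 to -86 and no peak within 1 kb of its start. A match of letters is a description of the window and not a mapped binding site.

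A peak overlapped 47 of the 72 RAB windows, against 54.3% of all windows. Whether or not a peak was present, 31.9% of RAB windows held GGAAGT, against 23.9% of the 22132 windows over all protein-coding genes. Within RAB genes this share was nearly equal with a peak over the window (15 of 47 windows, 31.9%) and without (8 of 25, 32.0%). Over all protein-coding genes it was 27.5% with a peak and 19.6% without. CCGGAAGT was found in 4 RAB windows (5.56%, background 5.35%), of which 3 were overlapped by a peak. CAGGAAGT was found in 0 RAB windows, against 3.04% of all windows. The AP-1 site TGANTCA was found in 8 RAB windows (11.1%, background 6.15%), 2 copies of it in a window of RAB13 and others in windows of RAB27A, RAB27B, RAB34, RAB3B and RAB5B. Windows of the same gene can overlap, so they are not independent.

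CpG content separated RAB windows with a peak from those without more widely than GGAAGT did. Of the 51 RAB windows with a CpG observed-to-expected ratio of 0.6 or more, the range of CpG island promoters, 41 (80.4%) were overlapped by a peak, against 77.7% of all such windows. Of the 21 RAB windows below 0.6, 6 (28.6%) were overlapped, against 15.8% of all such windows. The median ratio was 0.842 in RAB windows with a peak and 0.407 in those without.

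**Figure D2:**
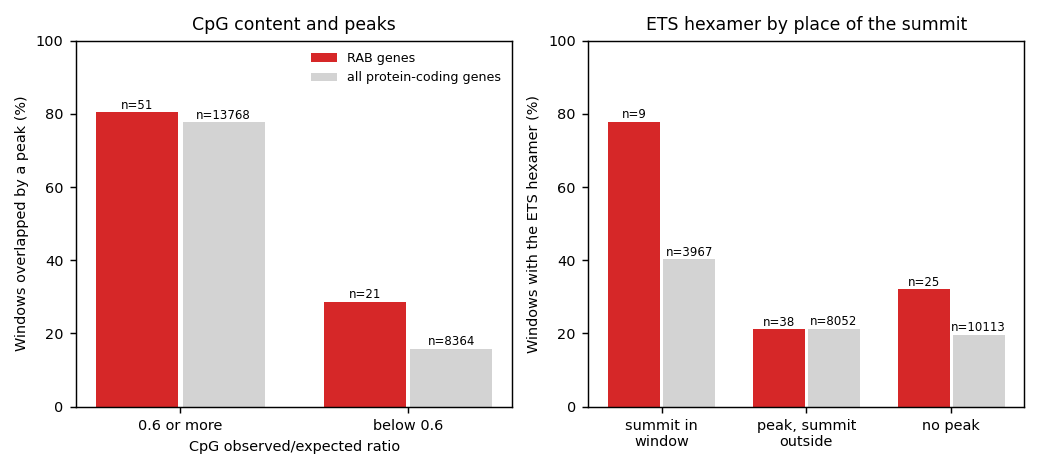
Shares of 300-base promoter windows, for RAB genes and for all protein-coding genes, with the number of windows above each bar. The left panel gives the percent overlapped by a peak by CpG ratio (80.4% and 28.6% in RAB genes), and the right panel the percent holding the ETS hexamer GGAAGT by the place of the summit (77.8%, 21.1% and 32.0% in RAB genes, from left to right).

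The group counts below are to be read beside the 78.1% of all RAB genes and 62.3% of all protein-coding genes with a gene-end peak. The groups are small, and differences between them were not tested. Among RABs of the early secretory pathway and the Golgi, 11 of 14 (78.6%) had a gene-end peak, with a median fold of 15.7. RAB2A, which acts between the endoplasmic reticulum and the Golgi, had the highest pileup of any RAB peak, 245 fragments (exact Poisson 95% confidence interval 215 to 278) over a control level of 2.55, a fold of 69.3. Its peak on chromosome 8 from 60516397 to 60517777 had its summit 52 bp inside the gene. RAB6B, a RAB6 form abundant in neurons, had a fold of 63.5 with 144 fragments (121 to 169.5). RAB6A, which runs retrograde traffic to and through the Golgi, had 139 fragments (117 to 164) at its promoter, a fold of 45.9, and a second peak of fold 50.2 inside the gene, 4258 bp downstream of the nearest listed start. RAB1A and RAB1B, needed for transport from the endoplasmic reticulum to the Golgi, were lower at folds of 15.4 and 15.7, as were RAB33A at 16.2 and RAB18, a RAB of lipid droplets and the endoplasmic reticulum, at 14.0. RAB2B and RAB43 were the lowest of this group and did not exceed a fold of 10, each with 36 fragments (25.2 to 49.8) over a control level of 2.70. RAB6C (fold 18.6) and RAB6D (fold 10.5) are close copies within the RAB6 subfamily, and how reads that match several places were handled is not given in the sources used here, so their values are uncertain. RAB30 and RAB33B had peaks inside the gene only, the strongest with folds of 24.7 and 10.5, and RAB41 had none.

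All 7 early endosome RABs had a gene-end peak, against 62.3% of all protein-coding genes, with a median fold of 22.1. RAB5A, the RAB that drives early endosomes to fuse, had the highest fold of the family, 74.1. Its peak on chromosome 3 from 19946782 to 19948010 held 191 fragments (165 to 220.1) over a control level of 1.59, and the summit lay 36 bp downstream of the start and 150 bp from an end of EFHB, the neighbouring gene. RAB31, a relative of RAB22A that works between the trans-Golgi network and endosomes, had 165 fragments (141 to 192) and a fold of 44.9. RAB21, RAB5C, RAB22A and RAB20 lay between folds of 19.3 and 23.2. RAB5B was the exception, with 10 fragments (4.80 to 18.4) and a fold of 3.64, the lowest of the 50 genes. That peak was at the 3′ end of RAB5B, 71 bp from an end of SUOX, and neither of the 2 listed RAB5B starts had a peak within 1 kb. A stronger peak, of fold 12.8, lay inside RAB5B, 2368 bp from its 3′ end.

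Of the 9 RABs of the recycling endosome, 8 had a gene-end peak, with a median fold of 18.1. RAB35, which returns cargo rapidly to the plasma membrane, was highest with 106 fragments (86.8 to 128) and a fold of 35.1. RAB14 followed at 30.4, with its summit 39 bp from an end of GSN, which encodes gelsolin, and then RAB15 at 25.2, RAB4A at 20.1, RAB4B at 16.0, RAB11A at 15.2 and RAB11B at 14.1. RAB17, an epithelial RAB of apical recycling, had only a peak of 11 fragments (5.49 to 19.7) and fold 5.26 at its 3′ end. RAB25, the epithelial member of the RAB11 subfamily that recycles integrins, had no peak.

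The late endosome, lysosome and autophagy RABs had gene-end peaks at 5 of 8 genes. RAB39A had 90 fragments (72.4 to 111) and a fold of 39.4, and RAB24 had 148 fragments (125 to 174) and a fold of 39.1. The RAB24 summit was 5 bp from an end of PRELID1, and 3 further peaks of folds 18.0, 9.60 and 3.28 lay within 1 kb of the ends of this short gene. Of these, the peak of fold 18.0 had its summit 624 bp outside RAB24 and 361 bp from an end of NSD1, another protein-coding gene. RAB7A had a fold of 19.2 and RAB9B of 17.3, while RAB9A, which carries cargo from late endosomes back to the Golgi, had 15 fragments (8.40 to 24.7) and a fold of 6.38. RAB7B had a peak of fold 7.88 inside the gene only. RAB42 and RAB39B, a gene mutated in X-linked intellectual disability, had none. Of the 3 RABs linked to lysosome-related organelles, RAB32 had 183 fragments (157 to 212) and a fold of 42.1, RAB29, a RAB that recruits the kinase LRRK2, a fold of 14.5, and RAB38, which with RAB32 supplies melanosomes and lung lamellar bodies, no gene-end peak but 1 of fold 40.7 deep inside the gene.

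RABs of regulated secretion had the lowest median gene-end fold of the groups with more than 4 members. They also held the most inside peaks of any group, 19, which that median leaves out. This total was not set against gene length, and the group holds the long genes RAB3C (277243 bp), RAB27B (177660 bp) and RAB27A (116158 bp). It is therefore no sign of a higher density of inside peaks. A gene-end peak was found at 7 of 9 genes, with a median fold of 10.7. RAB3A, the RAB of synaptic vesicles, had 10 fragments (4.80 to 18.4) and a fold of 4.49, with its summit 815 bp upstream of the start. RAB3C and RAB3B had folds of 8.28 and 9.36, and RAB3D, found on exocrine granules, had no peak. RAB26 (10.7), RAB27A (17.5) and RAB44 (19.5) were intermediate. The highest, RAB37 with 93 fragments (75.1 to 114) and a fold of 30.1, peaked 1010 bp outside RAB37, and an end of NHERF1 was 283 bp from that summit. NHERF1 encodes a scaffold of apical membrane proteins. RAB27B had no peak at its outermost ends but a peak of 117 fragments (96.8 to 140.2) and fold 29.2 at an inner listed start, described below with the starts.

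In the group that serves exocytosis, cell junctions and cilia, 8 of 10 genes had a gene-end peak and the median fold was 23.1. RAB12, which acts in the degradation of the transferrin receptor, had 218 fragments (190.0 to 249) and a fold of 72.4 in a peak on chromosome 18 from 8609081 to 8610020, with the summit 9 bp inside the gene. RAB28, a cilium RAB mutated in cone-rod dystrophy, had 176 fragments (151 to 204) and a fold of 42.3, and RAB8B, which acts in exocytosis with RAB8A, had 96 fragments (77.8 to 117) and a fold of 35.9. RAB34 had a fold of 26.7, RAB10, which moves the glucose transporter GLUT4 to the surface, 19.5, RAB13, a RAB of tight junctions, 12.9, and RAB23, a negative regulator of hedgehog signalling, 7.25. RAB8A, which builds the primary cilium, was lowest with 15 fragments (8.40 to 24.7) and a fold of 3.97. That summit was 600 bp upstream of the start. A second RAB8A peak, 94 bp downstream of the start, had 13 fragments (6.92 to 22.2) and a fold of 2.97. The intervals of these RAB8A peaks overlap. RAB19 and RAB36 had no peak. Of the 4 RAB40 genes, whose proteins carry a SOCS box that recruits a ubiquitin ligase, RAB40C had 91 fragments (73.3 to 112) and a fold of 33.5, RAB40B had 23 (14.6 to 34.5) and a fold of 6.49, and RAB40A and RAB40AL had no peak.

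Several close relatives differed by more than their counting intervals. Grouped by the number in the symbol alone, 14 subfamilies had at least 2 members and held 35 genes. In 8 of these subfamilies every member had a gene-end peak. In the other 6 (RAB3, RAB7, RAB27, RAB33, RAB39 and RAB40) some had and some lacked one. A gene-end peak was found at 78.1% of RAB genes and 62.3% of all protein-coding genes, and no expected count of complete subfamilies was computed. RAB27B counts as lacking one although it had the peak of fold 29.2 at an inner listed start. RAB5B counts as having one through its 3′-end peak of fold 3.64. This grouping leaves RAB25, which had no peak, out of the RAB11 subfamily. The pileup intervals of RAB2A and RAB2B (245 against 36 fragments), of RAB8B and RAB8A (96 against 15), of RAB9B and RAB9A (40 against 15), and of RAB5A, RAB5C and RAB5B (191, 66 and 10) did not overlap, at control levels between 1.37 and 3.03. The RAB5 values come from unlike places. The RAB5A and RAB5C summits were 36 and 59 bp from a start, and the RAB5B peak was at the 3′ end, near SUOX. The stronger peak inside RAB5B had 34 fragments (23.5 to 47.5). The intervals of RAB11A and RAB11B (50 and 75), of RAB1A and RAB1B (40 and 57) and of RAB6A and RAB6B (139 and 144) did overlap. RAB6B had the higher fold of this last pair over a control level of 1.28, against 2.05 at RAB6A. RAB4A and RAB4B were ordered oppositely by the 2 measures. RAB4B had more fragments (107, interval 87.7 to 129, against 45, interval 32.8 to 60.2) and the lower fold, over a control level of 5.74 against 1.28. When all 50 genes were ordered by fold, the pileup intervals overlapped in 40 of the 49 pairs of neighbours, so the order is not resolved from gene to gene.

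Peaks at RAB genes were more often at the 5′ end than at the 3′ end. Among the 51 genes whose strand the promoter table gives, 39 (76.5%) had a peak within 1 kb of the outermost 5′ end, against 61.4% of all protein-coding genes, and 5 (9.80%) within 1 kb of the 3′ end, against 9.58%. Those 5 were RAB1B, RAB3B, RAB5B, RAB17 and RAB24. Counting every listed start, 40 genes (78.4%) had a peak within 1 kb of a start, against 64.5%. At these 40 genes the summit of the strongest peak was a median of 228 bp from the nearest start, within 250 bp in 23 genes (57.5%), and downstream of the start in more genes than upstream, with 15 (37.5%) upstream. Over all protein-coding genes the median was 196 bp, with 58.4% within 250 bp and 41.9% upstream. The furthest upstream was RAB3C at -963 bp, and the furthest downstream RAB1B at 871 bp. The RAB3C summit was only 40 bp outside the outermost 5′ end, because the listed start of RAB3C lies further inside the gene.

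**Figure D3:**
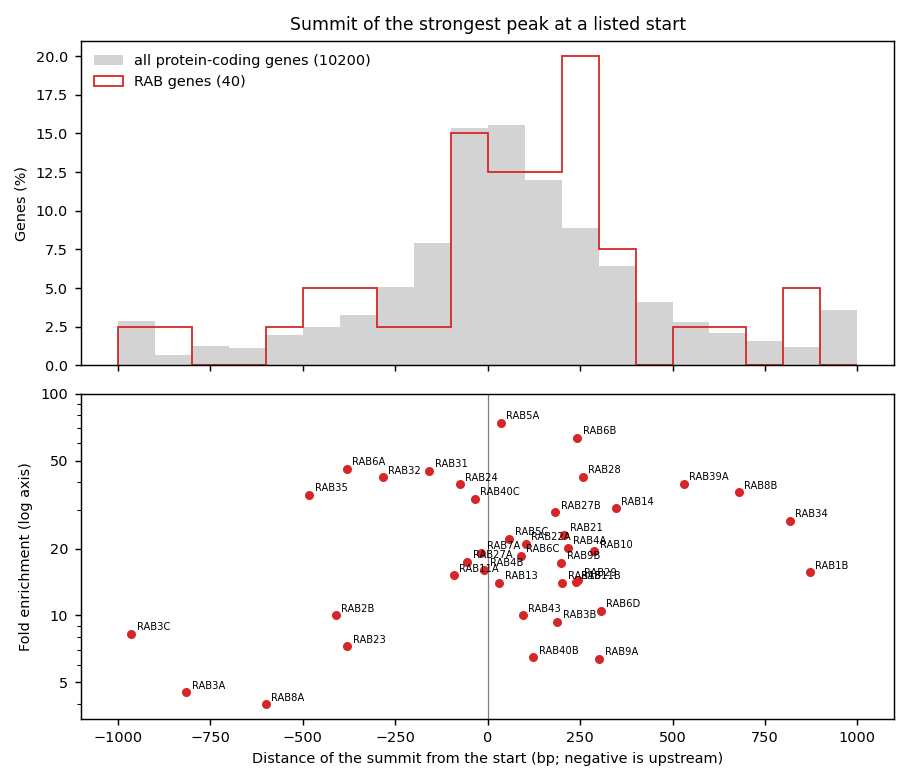
Distance of the summit of the strongest peak from the nearest listed start, in bp. The upper panel gives the percent of 40 RAB genes and of 10200 protein-coding genes in bins of distance, with summits beyond the axis counted in the outermost bins, and the lower panel the fold (log axis) of each RAB gene. Most RAB summits lie within 500 bp of a start (33 of 40, 82.5%), close to the 81.0% of all protein-coding genes. RAB3C, RAB3A and RAB8A, the furthest upstream, have folds of 8.28, 4.49 and 3.97. The RAB3C summit lies 40 bp outside the outermost 5′ end of that gene, which is not a listed start.

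Alternative starts differed within a gene. RAB27A has 5 listed starts, and only the outermost, with a CpG ratio of 0.878, had a peak within 1 kb. The summit there was 44 bp from an end of PIGB and 55 bp from an end of PIGBOS1, so the peak cannot be given to 1 of these genes. RAB27B has 2 listed starts. The inner start, with a ratio of 0.656, had the peak of fold 29.2 with its summit 183 bp downstream, and the outer start, with a ratio of 0.309, had none. At RAB13 the outermost end lies at the end of RPS27, a ribosomal protein gene, and the gene-end peak had its summit 15 bp from that end. The listed RAB13 starts, inside this outer limit, had peaks of their own with folds of 14.1 and 13.1, the stronger with its summit 32 bp downstream of a start.

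At 25 of the 50 RAB genes with a gene-end peak, an end of another gene of any type lay within 1 kb of the summit of the strongest such peak, against 43.1% of the 12444 protein-coding genes with a gene-end peak. At 10 of the 50 RAB genes such a neighbour was protein-coding, against 26.4%. Besides the pairs already named, these 10 included RAB2B with TOX4, RAB23 with PRIM2, which encodes the large subunit of DNA primase, and RAB4B with MIA. The summit was 174 bp from the end of TOX4 and 301 bp from the end of PRIM2. Which gene such a peak serves cannot be told from its position.

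Inside the genes, away from both ends by more than 1 kb, 23 RAB genes (35.9%) held 55 peaks, against 37.3% of all protein-coding genes. This was 1.80 peaks per 100 kb of gene, against 1.65 over all protein-coding genes, and the median fold was 9.63, against 8.32. RAB31 held the most, 8 peaks with folds between 3.20 and 23.3. The strongest of these, on chromosome 18 from 9741538 to 9743013, lay 34120 bp downstream of the start with 93 fragments (75.1 to 114), beside another of fold 18.8. RAB3C held 5, the strongest of fold 39.7 with 147 fragments (124 to 173), 167742 bp downstream of the start, against 28 fragments (18.6 to 40.5) in its gene-end peak. RAB37 held 5 with folds between 3.40 and 21.4. In RAB27A, the inside peaks of folds 42.2 and 28.2 had 102 (83.2 to 124) and 69 (53.7 to 87.3) fragments, and the former interval did not overlap that of the peak at its 5′ end, 52 fragments (38.8 to 68.2), at control levels of 1.44 and 2.03. RAB28, RAB2A and RAB10, each over 100 kb long, held no peak inside.

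**Figure D4:**
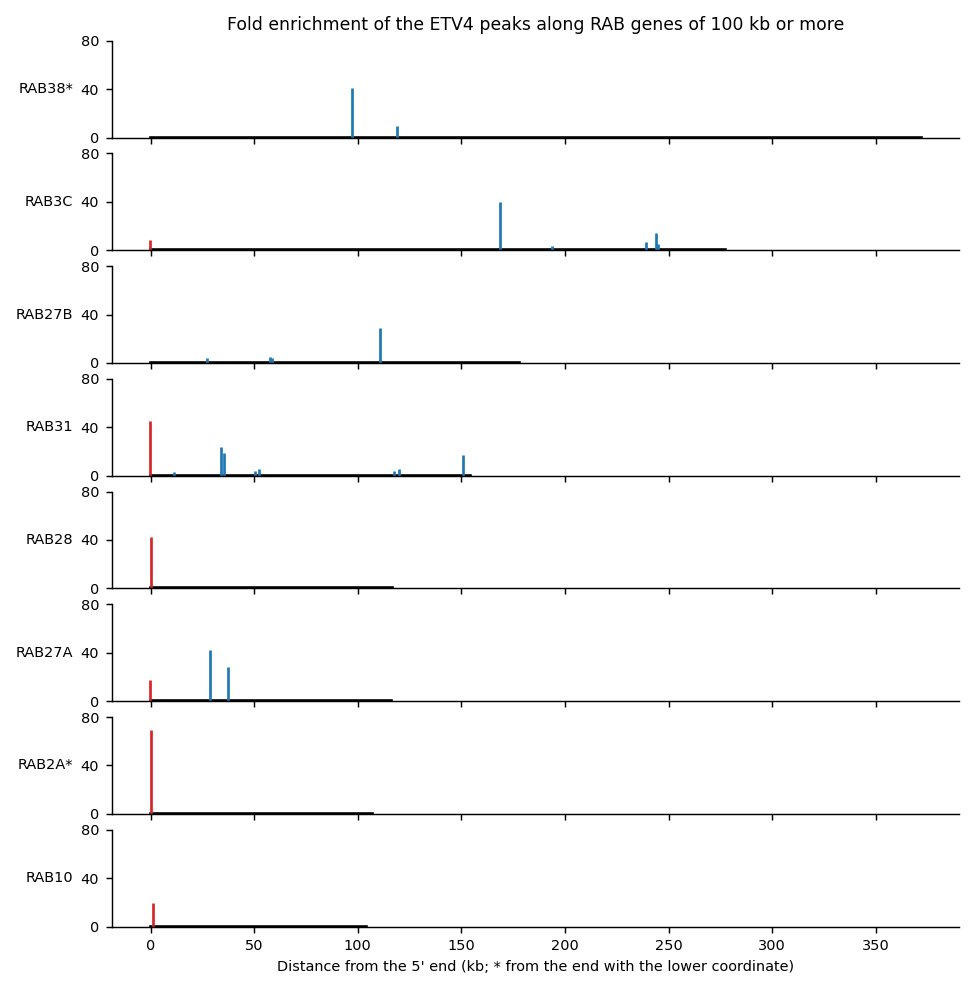
Fold of each peak (height) against its distance along the 8 RAB genes of 100 kb or more, in kb from the 5′ end, or from the end with the lower coordinate for the 2 genes marked with an asterisk. Red lines are gene-end peaks, blue lines peaks inside, and the black bar is the gene. RAB38, RAB3C, RAB27B and RAB27A have their strongest peak inside, and RAB28, RAB2A and RAB10 have a gene-end peak only.

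The 9 RAB genes with no peak at all (14.1%, against 25.5% of all protein-coding genes) were RAB19, RAB25, RAB36, RAB39B, RAB3D, RAB40A, RAB40AL, RAB41 and RAB42. For the 7 of them with a listed start, the CpG ratio ranged from 0.273 to 0.630 with a median of 0.460, and 2 windows, those of RAB3D and RAB40AL, reached 0.6. Of these 9 genes, 4 are on chromosome X, where 3 of 7 RAB genes had a gene-end peak, against 45.0% of the 848 protein-coding genes there. RAB40A and RAB40AL are close copies of each other, so reads from them may not map uniquely. A gene without a called peak can still hold signal under the caller's limit. The shares of genes with no peak were not matched for gene length.

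The proteins that regulate and read RABs were taken as 4 lists. A gene-end peak was found at 109 of 127 such genes (85.8%, background 62.3%), with a median fold of 21.5. Among GTPase activating proteins it was found at 31 of 33 genes, with a median fold of 26.2, led by TBC1D14 (71.9), TBC1D12 (70.7) and TBC1D9 (68.8), and lacking at TBC1D10C and TBC1D25. Among effectors it was found at 35 of 42, led by BICD1 (77.6), a dynein adaptor for RAB6, RABEP2 (77.2), which binds RAB5, and SYTL3 (63.1). Effectors without a gene-end peak were EXOC6, MICAL1, MLPH, RBSN, RPH3A, RPH3AL and SYTL5. Among exchange factors it was found at 36 of 44, led by RGP1 (69.1), part of the factor for RAB6, TRAPPC10 (68.9) and DENND4B (64.9), and lacking at CCZ1, DENND1B, DENND1C, DENND2D, HPS4, RAB3IL1, SBF1 and TRAPPC5. CCZ1 has a near-identical copy, CCZ1B, so its value is uncertain. Among the genes for prenylation and membrane recycling it was found at 7 of 8, led by GDI2 (27.9), which draws GDP-bound RABs off membranes, RABIF (21.5) and RABAC1 (11.8), and lacking at RABGGTB, a subunit of the transferase that prenylates RABs. RABGGTA, the other subunit, had a fold of 3.47.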

How the data were processed

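Peaks of ETV4 were measured by ChIP-seq in 1 Flag-ETV4 immunoprecipitate, and the Input library entered only as the control. The authors deposited a narrowPeak list of 54389 peaks, called by them against the Input. As deposited, the fold enrichment is the ratio of the summit pileup to the local control level made by the authors' peak caller. As deposited, the −log10 p-value and −log10 q-value at the summit were also made by that caller (lowest −log10 q 1.30). The deposited display score was not used. The submitters' processing notes name Bowtie2 2.4.1, SAMtools, MACS2 2.2.7.1, deepTools 3.5.0 and hg38. Parameters and the handling of duplicate reads are not given in the sources used here. Positions are 1-based on hg38.

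Genes and promoter windows came from RefSeq tables on GRCh38.p14. No window was used for RAB1A, RAB2A, RAB12, RAB15, RAB20, RAB26, RAB33A, RAB33B, RAB36, RAB37, RAB38, RAB39B and RAB44. The pileup and the control level were solved from the fold, taken with a pseudocount of 1, and the Poisson p-value, which gave whole numbers within 0.01 for 100.0% of peaks. The solution was tested on simulated data. Pileups of all peaks ranged from 6 to 7664 with a median of 26.0, and 29.0% of the peaks had the lowest control level, 1.28. Intervals are exact Poisson 95% confidence intervals.

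RAB genes, groups and lists were chosen with earlier results of these data known. RAB6D was added to its group afterwards. Every RAB gene was accounted for, and the 12 genes with the highest gene-end fold, the 5 with the lowest, those with no peak and the 3 with the most inside peaks were to be given in full. Subfamilies follow the symbols, since protein identity was not analysed here. Tables were read with pandas 2.3.3 under Python 3.11.15. Intervals came from scipy 1.17.1 and numpy 2.4.6, and plots from matplotlib 3.10.9.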

Additional observations from a re-analysis of the deposited data

How the results depend on the processing

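Counts of RAB genes with a peak, the median fold, the density of inside peaks, the GGAAGT count and the partner lists were recomputed in 37 combinations of result and setting, and 35 stayed within 1.5 times the reported value. For the pileup in place of the fold, the ratio of RAB genes to all protein-coding genes was compared in place of the value. The settings were a fold over 5 or 10, a −log10 q over 5, summits in place of intervals, windows of 0.5, 2 and 3 kb, 3 kb left out at each end, RAB genes outside chromosome X, the pileup in place of the fold, and the GGAA core. The limit of 1.5 times is wider than the difference between RAB genes and all protein-coding genes (78.1% against 62.3% with a gene-end peak). Wider windows can also only add genes, so the tally does not show that this difference held. The share of RAB genes with a gene-end peak was above that of all protein-coding genes in every setting computed for it. With a fold over 10, inside peaks fell to 0.817 per 100 kb of RAB gene, against 0.695 over all protein-coding genes. The GGAA core alone was found in 65 of 72 RAB windows (90.3%), against 95.2% of all windows. Every GGAAGT holds this core and nearly every window has it. This setting therefore cannot show whether the higher share of RAB windows with GGAAGT extends to the core. The median fold of RAB gene-end peaks was above that of all protein-coding genes, but with a fold over 10 it was below, 21.1 against 23.5. Summits in place of intervals left 45 genes (70.3%, against 58.7% of all protein-coding genes) with a gene-end peak, without RAB10, RAB17, RAB34, RAB37 and RAB44, and a 3 kb window gave 52 (81.2%, against 68.6%), adding RAB30 and RAB41. No paired analysis was possible because there was 1 immunoprecipitate, and for the same reason no replicate could be left out. With 57.0 fragments at a median gene-end summit, the depth leaves small differences between genes unresolved.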
